A study of Mus musculus with 8 samples.

Results

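The AP-1 and BATF transcription factors were taken as a list of 10 genes, Jun, Junb, Jund, Fos, Fosb, Fosl1, Fosl2, Batf, Batf3 and Atf3, found by their symbols in the deposited table. All 10 were among the 22829 genes listed, each under 1 identifier, and all 10 had a mean of at least 10 normalized counts over the 8 samples. Transcripts had been measured by RNA seq in mouse CD4+ T cells that lack ROR-γt (ROR-γt-/-), were transduced with lentivirus and were grown under Th17-inducing conditions. The 4 WT samples had received WT-ROR-γt and the 4 K187R samples the SUMOylation-defective K187R-ROR-γt, in which the lysine that accepts SUMO is replaced by arginine. Both groups therefore share the deletion, the vector and the culture, and the ROR-γt in them comes from a construct. No sample without ROR-γt was analysed here. The series' design text counts 4 WT and 4 mutant animals, whereas the sample labels describe reconstituted ROR-γt-/- cells, so it is unclear whether each sample came from its own animal and culture. If some did not, p-values measure in part a technical spread between samples. Whether the cells were restimulated before RNA was taken, a treatment to which AP-1 genes respond, is also not stated.

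AP-1 is a dimer of basic leucine zipper (bZIP) proteins, which hold DNA with a basic region and pair through a zipper of leucines. JUN proteins pair with each other or with FOS, BATF or ATF proteins, while FOS proteins need a partner from another subfamily. Signals from the T cell receptor pass through Ras, protein kinase C and the MAP kinases to switch on Fos and Jun within minutes. BATF lacks a transactivation domain of its own. In T cells it joins a JUN protein, binds beside IRF4 and opens sites that ROR-γt later uses, and Th17 cells do not form without it.

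The 10 proteins share the basic region that reads the AP-1 site, and the 27 bases that code for its core are shown for each gene. They were read from the GENCODE M21 transcripts of GRCm38 in the 5′ to 3′ direction. Capitals mark the 10 positions at which all 10 genes have the same base. Each stretch was located by a set pattern of amino acids, which by itself fixes most of these positions. Other bZIP genes were not searched.
Jun: AAccgcaTtGCcGCctccAagtGccGg
Junb: AAcaggcTgGCgGCcaccAagtGccGg
Jund: AAccgcaTcGCcGCctccAaatGccGc
Fos: AAtaagaTgGCtGCagccAagtGccGg
Fosb: AAcaagcTgGCtGCagctAagtGcaGg
Fosl1: AAcaagcTaGCaGCtgctAagtGcaGa
Fosl2: AAcaagcTaGCtGCagccAagtGtcGg
Batf: AAtcgcaTcGCtGCccagAagaGccGa
Batf3: AAccgggTtGCaGCtcagAggaGccGg
Atf3: AAtaaaaTtGCtGCtgccAagtGtcGa
Jun and Jund were the closest pair, matching at 24 of the 27 positions. The longest run of bases shared exactly by annotated transcripts of any 2 of the genes was 20 bases, also in Jun and Jund, which is shorter than the sequenced reads.

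Reads on genes numbered from 52456804 to 74676721 in a sample. The values are normalized counts, that is reads divided by 1 size factor per sample. Clustering without the genes of interest put WT replicates 1 and 3 with K187R replicate 1 (set 1), WT replicate 2 with K187R replicates 2 and 3 (set 2), and WT replicate 4 with K187R replicate 4 (set 3). The sets were found from the data and are not groups of the study. Xist lay between 13564 and 17373 normalized counts in the 3 samples of set 2 and at 23.7 or less in the other 5. Summed over 6 genes, T cell markers lay between 136090 and 157015 in every sample. Monocyte and macrophage markers were also present, with Lyz2 alone between 17025 and 57778.

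In limma 0 of the 10 genes passed an adjusted p-value of 0.05, as did 0 of all 16982 genes tested (0%), and 467 of these genes were higher and 279 lower in K187R at an unadjusted p-value under 0.05. Of the 10, 1 gene had such an unadjusted p-value, Fosl2, with the lower level in K187R, where 1.64% of all genes tested passed in that direction and 2.75% in the other. DESeq2, run on the reads recovered from the table, called Fosl2 alone among the 10, with 27 of 13970 genes called in all (0.193%). With the 3 sets described above as a factor, added after the data were seen, DESeq2 called Fosl2 and Fosb (1.02% of all genes). By edgeR's quasi-likelihood test 0 of the 10 passed the adjusted threshold (0% of all genes), and 1 had an unadjusted p-value under 0.05 (4.29% of all genes). The median log2 fold change (K187R minus WT) of the 10 was -0.10, against -0.01 over all genes tested, and 6 of the 10 were below 0, where 51.6% of all genes were. In bulk RNA, fewer cells of a type and less RNA per cell cannot be told apart.

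**Figure D1:**
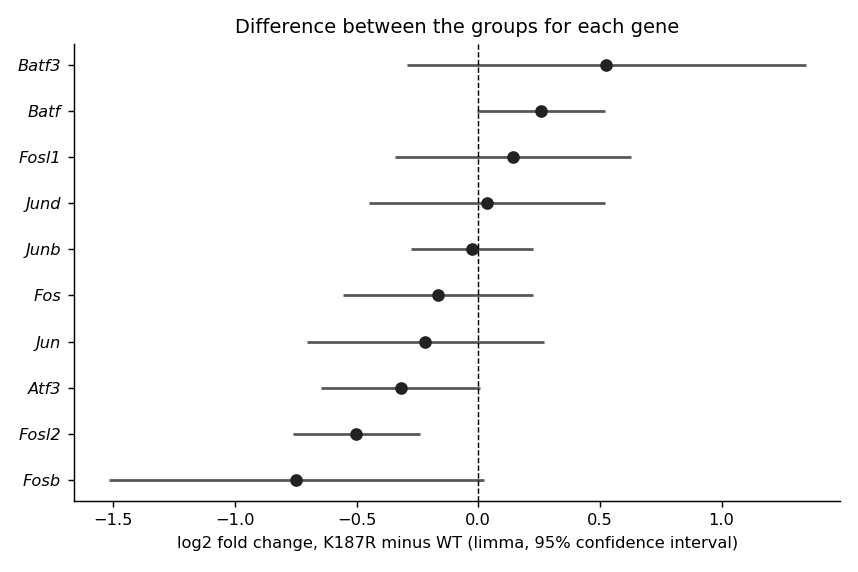
The log2 fold change (K187R minus WT, horizontal axis) of each of the 10 genes from limma is drawn as a point with its 95% confidence interval. The interval of Fosl2, from -0.76 to -0.24, is the 1 interval of the 10 that does not include 0.

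Fosl2 codes for FRA-2, a FOS protein without the strong transactivation domains of FOS and FOSB and a known regulator of Th17 differentiation. The gene (ENSMUSG00000029135) lies on chromosome 5 of GRCm38, 32135801 to 32157842, plus strand. Its normalized counts were 11780, 9162, 12583 and 8907 in WT and 7398, 7089, 7646 and 7526 in K187R. All 4 WT samples were above all 4 K187R samples, a separation in this direction that 0.989% of all genes tested showed and that no other of the 10 genes showed. The means were 10608 ± 1849 (SD, n = 4) and 7415 ± 240 (SD, n = 4), and the K187R samples were much the closer together.

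On the log2 scale Fosl2 differed by -0.50 with a standard error of 0.115, so that K187R stood at 70.7% of WT. The adjusted p-value from limma was 0.921, and its unadjusted p-value of 0.00169 ranked 30 among the 16982 genes. The exact two-sided permutation p of Fosl2, unadjusted and 1 of 10 such tests, was 0.0286, the smallest that 4 samples against 4 allow. Groups that are fully apart always give this value, so it adds nothing to the separation described above. Permutation p-values of the other 9 genes lay between 0.0571 and 0.914. Within the sets the differences on the log2 scale were -0.72, -0.32 and -0.24. That all 3 lie below 0 follows from the same separation.

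By DESeq2 the adjusted p-value of Fosl2 was 0.0499, with a log2 fold change of -0.52. That call held without WT replicate 2 (adjusted p = 0.00844 from DESeq2) and without WT replicate 4 (adjusted p = 0.000314 from DESeq2). It was lost without WT replicate 1 (0.576) or 3 (0.378) and without K187R replicate 1 (0.22), 2 (0.659), 3 (0.264) or 4 (0.0866), all adjusted p-values from DESeq2. With the sample set as a factor the adjusted p of Fosl2 was 0.00634 from DESeq2 and 0.251 from limma. In all 31 alternatives the log2 fold change of Fosl2 was below 0, from -0.59 to -0.41. For the limma fits with a sample left out, the separation of the groups fixes this sign.

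**Figure D2:**
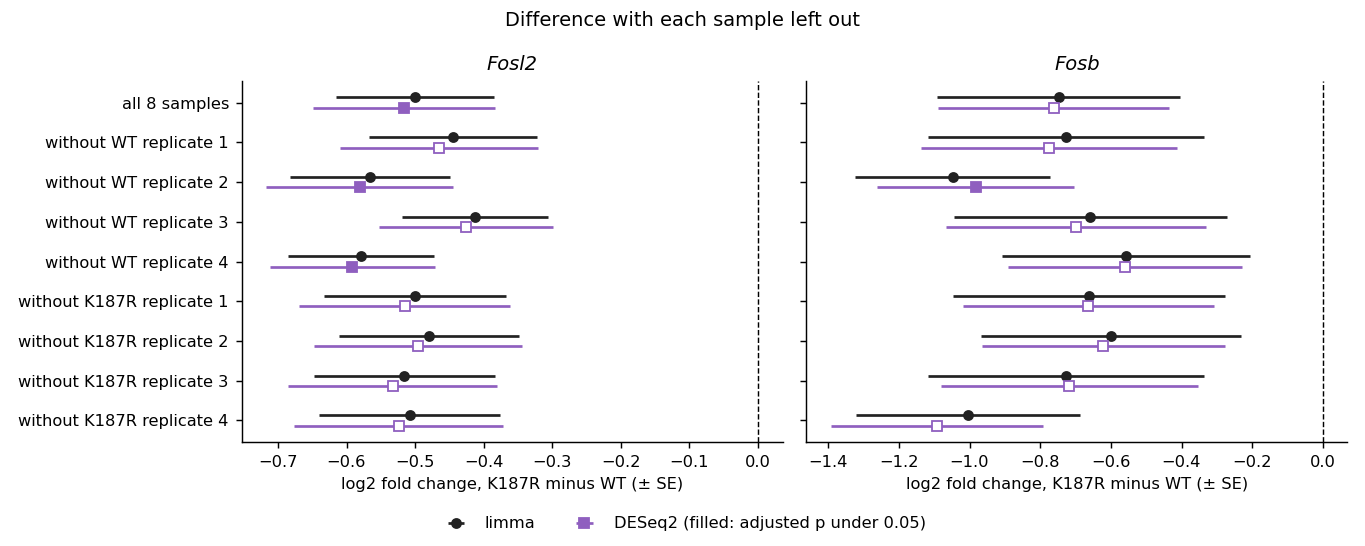
The log2 fold change (K187R minus WT) of Fosl2 and Fosb is drawn with its standard error for all 8 samples and with each sample left out, from limma (circles) and DESeq2 (squares, filled where the adjusted p-value is under 0.05). For Fosl2 the limma values lie between -0.58 and -0.41 and for Fosb between -1.05 and -0.56, and 3 of the 9 Fosl2 squares and 1 of the 9 Fosb squares are filled.

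Fosb codes for FOSB, an inducible FOS protein that can activate transcription. The gene (ENSMUSG00000003545) lies on chromosome 7, 19302696 to 19310051, minus strand. Its normalized counts were 610, 312, 704 and 868 in WT and 290, 255, 333 and 592 in K187R. WT replicate 2 lay among the K187R samples and K187R replicate 4 among the WT samples, so the groups overlapped. Fosb differed by -0.75 on the log2 scale, with a standard error of 0.343 (adjusted p = 0.921 from limma), and the confidence interval ran from -1.52 to 0.02. Without WT replicate 2 the log2 fold change was -1.05 (adjusted p = 0.552 from limma), and DESeq2 then called the gene (adjusted p = 0.0491). DESeq2 also called it with the sample set as a factor (adjusted p = 0.0452), while with the group alone on all 8 samples it did not. With the sample set the adjusted p of Fosb was 0.420 from limma and 0.426 from edgeR.

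Fos codes for c-FOS, the FOS protein that T cell receptor signals induce first (ENSMUSG00000021250, chromosome 12, 85473890 to 85477273, plus strand). Counts of Fos were 719, 590, 765 and 1040 in WT and 679, 626, 613 and 819 in K187R, with replicate 4 the highest of each group. Its log2 fold change of -0.17 (SE 0.173, adjusted p = 0.924 from limma) was within the spread of the samples.

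Fosl1 codes for FRA-1, which AP-1 itself is known to induce (ENSMUSG00000024912, chromosome 19, 5447547 to 5455946, plus strand). Its counts were 397, 287, 513 and 586 in WT and 445, 413, 560 and 493 in K187R, and the groups overlapped throughout. A log2 fold change of 0.14 (SE 0.215, adjusted p = 0.937 from limma) turned to -0.05 without WT replicate 2. Of its annotated exonic length 57.2% lies opposite Ccdc85b on the other strand, and since it is not stated whether reads were counted by strand, reads of the pair may not have been told apart.

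**Figure D3:**
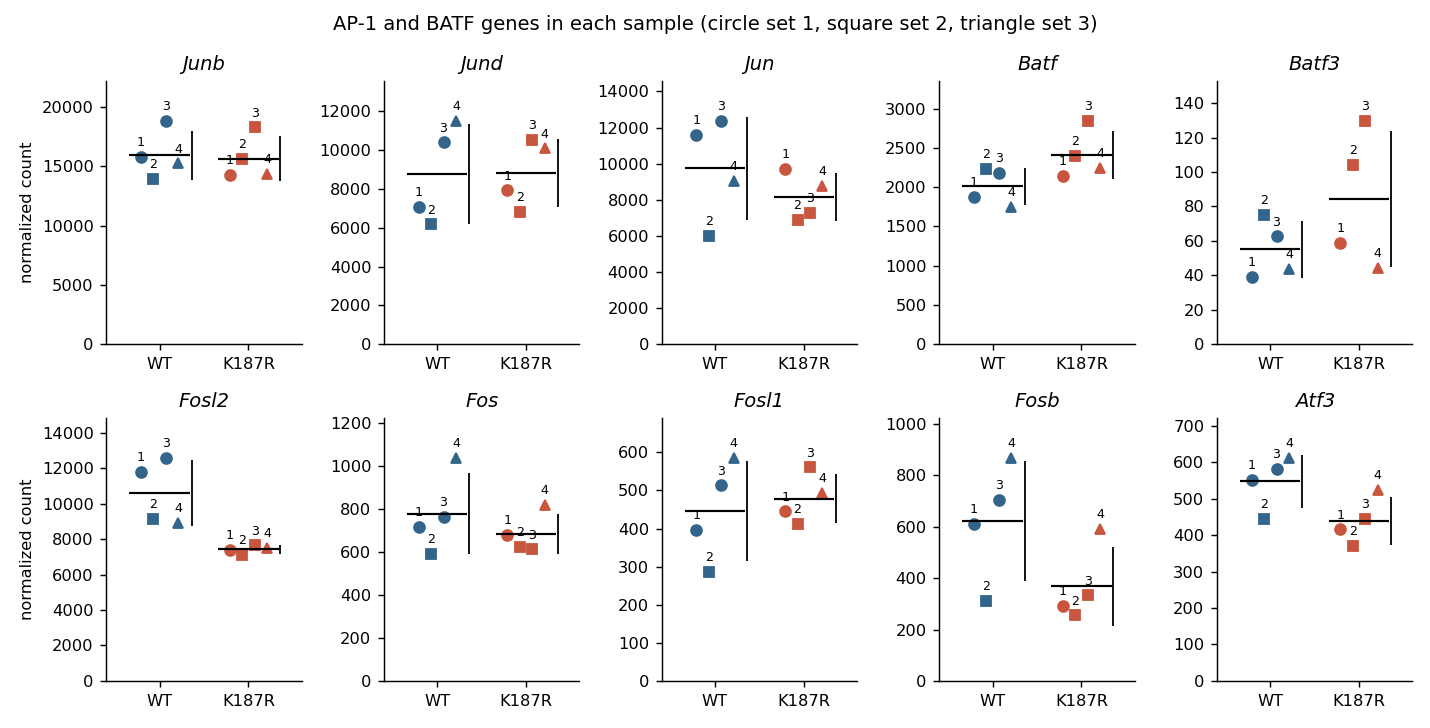
Normalized counts (vertical axes, from 0) of each gene in the 4 WT and the 4 K187R samples are drawn with the replicate number, the mean as a horizontal line and the SD as a vertical line. The groups are fully apart for Fosl2, with WT from 8907 to 12583 and K187R from 7089 to 7646, and they overlap for the other 9 genes.

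Batf codes for BATF, the factor that with IRF4 prepares Th17 gene loci for ROR-γt (ENSMUSG00000034266, chromosome 12, 85686669 to 85709087, plus strand). Its normalized counts were 1873, 2236, 2185 and 1745 in WT and 2138, 2400, 2839 and 2243 in K187R. The 3 highest samples were all K187R and the 2 lowest were WT, with WT replicates 2 and 3 between K187R replicates 1 and 4. Batf had a log2 fold change of 0.26 with a standard error of 0.116 (adjusted p = 0.921 from limma) and an exact permutation p of 0.114. This stayed above 0 in all 31 alternatives, from 0.17 to 0.31, and the gene was called in none.

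Batf3 codes for BATF3, best known for the cross-presenting dendritic cells that need it and also made in activated T cells (ENSMUSG00000026630, chromosome 1, 191097847 to 191108945, plus strand). It was the least abundant of the 10, with 33 to 123 reads per sample. Normalized counts were 39.2, 75.0, 62.6 and 43.6 in WT and 58.7, 104, 130 and 44.5 in K187R. The 3 samples of set 2 were the highest of all 8, whichever group they belonged to. Between the groups Batf3 differed by 0.53 on the log2 scale (SE 0.364, adjusted p = 0.921 from limma), and within sets 1, 2 and 3 by 0.24, 0.62 and 0.03.

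Dendritic cell markers, 5 of 5 listed in the table, summed to between 856 and 1747 in WT and between 1184 and 2563 in K187R, and their sum too was highest in the 3 samples of set 2. Of these markers Xcr1 was at 5.77 or less and Clec9a at 12.7 or less in every sample. Both are defining markers of the dendritic cells that need BATF3. In WT replicate 2 and K187R replicates 2 and 3 (set 2), Flt3 was at 335, 420 and 351, and at most 251 elsewhere. Zbtb46 was at 196, 260 and 273 in the same samples and at most 151 elsewhere. Itgax lay between 608 and 1930 and was also highest in set 2. Monocyte and macrophage markers, 5 of 5 in the table, summed to between 20336 and 61225 in WT and between 35204 and 64257 in K187R. The part of such cells in the values of Batf3 was not tested. With the sample set as a factor the log2 fold change of Batf3 was 0.32 (adjusted p = 0.762 from limma).

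Junb codes for JUNB, a partner of BATF that Th17 cells are known to need (ENSMUSG00000052837, chromosome 8, 84974484 to 84978718, minus strand). Its normalized counts were 15771, 13915, 18818 and 15260 in WT and 14260, 15667, 18298 and 14389 in K187R. The range of the K187R samples lay inside that of the WT samples. A log2 fold change of -0.02 had a confidence interval from -0.28 to 0.23 (adjusted p = 0.982 from limma), and its sign turned without WT replicate 3 (0.06) and without K187R replicate 1 (0.02) or 4 (0.01).

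Jund codes for JUND, the JUN protein present in resting cells (ENSMUSG00000071076, chromosome 8, 70698949 to 70700616, plus strand). Counts of Jund were 7065, 6173, 10405 and 11501 in WT and 7933, 6818, 10516 and 10097 in K187R, so that replicates 3 and 4 were above replicates 1 and 2 in both groups. Its log2 fold change was 0.03 with a confidence interval from -0.45 to 0.52 (adjusted p = 0.987 from limma). It was -0.05 without WT replicate 1, -0.12 without WT replicate 2, and below 0 also without K187R replicate 3 or 4. Gm11175 on the other strand overlaps 52.6% of its exonic length, with the same limit as for Fosl1.

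Jun codes for c-JUN, the JUN protein that the kinase JNK activates (ENSMUSG00000052684, chromosome 4, 95049034 to 95052222, minus strand). Its counts were 11570, 5989, 12352 and 9050 in WT and 9705, 6865, 7262 and 8764 in K187R. WT held both the highest samples and the lowest one. On the other strand Junos overlaps 7.28% of the exonic length of Jun, as Prdx2 does 7.52% of that of Junb. Jun had a log2 fold change of -0.22 with a confidence interval from -0.71 to 0.27 (adjusted p = 0.923 from limma). It was -0.43 without WT replicate 2 and -0.04 with the sample set as a factor, with no call in either fit.

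Atf3 codes for ATF3, a bZIP protein that stress induces and that can repress transcription (ENSMUSG00000026628, chromosome 1, 191170296 to 191218039, minus strand). Its normalized counts were 551, 444, 582 and 612 in WT and 416, 371, 443 and 525 in K187R. K187R replicate 4 lay above WT replicate 2, so the groups overlapped. Atf3 had a log2 fold change of -0.32 with a standard error of 0.145 (adjusted p = 0.921 from limma) and an exact permutation p of 0.0571. Within the sets the log2 differences were -0.45, -0.13 and -0.22, and in set 2 K187R replicate 3 (443) was almost level with WT replicate 2 (444).

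Of the WT samples, replicate 2 had the lowest value of 7 of the 10 genes, namely Fos, Fosb, Fosl1, Jun, Junb, Jund and Atf3, and the highest value of Batf and Batf3. K187R replicate 2, of the same set, was the lowest K187R sample for 6 of the 10, Fosb, Fosl1, Fosl2, Jun, Jund and Atf3. Fosl2 was the exception in WT, where replicate 4 had its lowest value.

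Levels of different genes were compared as normalized counts per kb of annotated exons. The order of the means over 8 samples was Junb (6865), Jund (5284), Jun (2805), Batf (1570), Fosl2 (931), Fos (311), Atf3 (229), Fosl1 (227), Fosb (79.4) and Batf3 (43.6). Each gene was above the next in 8 of 8 samples except Junb over Jund (7 of 8), Atf3 over Fosl1 (4 of 8) and Fosb over Batf3 (6 of 8). Atf3 and Fosl1 therefore did not differ beyond their spread. The ranges over 8 samples were fully apart only between Fosl2 and Fos and between Fosl1 and Fosb. For Jund and Fosl1 the overlap may have added or removed reads, since it is not stated how reads on overlapping exons were counted. The order was the same with the length of the longest transcript.

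JUN genes made up between 78.2% and 83.0% of the 10 genes per kb in every sample. FOS genes made up 10.01%, 9.34%, 8.99% and 9.08% in WT and 7.73%, 7.65%, 6.82% and 7.96% in K187R. The FOS share of every WT sample was above that of every K187R sample, with means of 9.35% ± 0.459 (SD, n = 4) and 7.54% ± 0.496 (SD, n = 4). Without Fosl2, the other 3 FOS genes summed to between 2.97% and 4.41% in WT and between 2.92% and 3.73% in K187R, and the groups overlapped. These shares have no test.

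BATF genes made up 7.48%, 11.02%, 7.20% and 6.44% in WT and 9.13%, 10.9%, 10.4% and 8.83% in K187R. WT replicate 2 had the highest share of all and the other 3 WT samples the lowest. As a ratio per kb, chosen after the values were seen, Fosl2 stood to Batf as 0.914, 0.595, 0.836 and 0.741 in WT and as 0.502, 0.429, 0.391 and 0.487 in K187R.

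**Figure D4:**
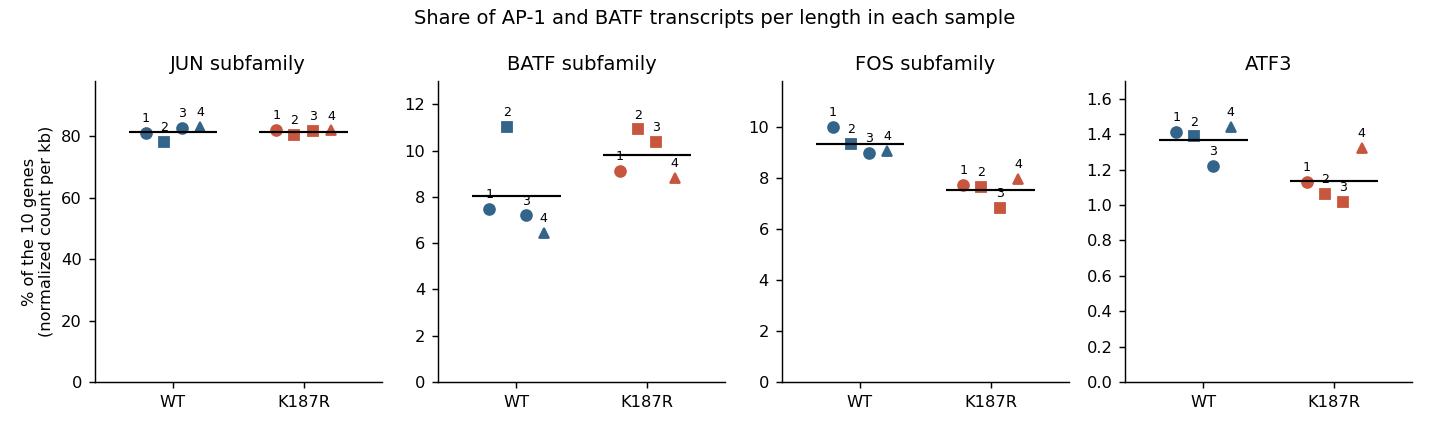
The share of each subfamily among the 10 genes, in percent of normalized counts per kb (vertical axes, from 0), is drawn for each sample with its replicate number and the group mean as a line. The FOS shares are apart, 8.99% to 10.01% in WT and 6.82% to 7.96% in K187R, and the JUN, BATF and ATF3 shares overlap.

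Irf4, whose product binds DNA next to BATF and JUN, had 43116, 37989, 42321 and 33714 normalized counts in WT and 39742, 40144, 39593 and 37473 in K187R. Its log2 fold change was 0.00 (adjusted p = 0.996 from limma), with the K187R values inside the WT range. Irf8, a relative of IRF4 that can take its place, had 7453, 4096, 8742 and 4523 in WT and 5055, 4747, 5457 and 3988 in K187R, a log2 fold change of -0.30 (adjusted p = 0.921 from limma). Among 13 other bZIP genes, which include Maf, Bach2 and Atf4, 0 had an unadjusted p-value under 0.05. The 3 with the smallest were Maff with a log2 fold change of -0.20, Jdp2, a repressor of AP-1, with -0.22, and Nfe2l2, the oxidative stress factor NRF2, with 0.15 (adjusted p = 0.921 for each from limma).

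Of 23 genes that carry T cell receptor signals to AP-1, 0 passed the adjusted threshold, and 2 had an unadjusted p-value under 0.05, both above 0, where 2.75% of all genes tested did. They were Prkcq, protein kinase C theta, with a log2 fold change of 0.16, and Rasgrp1, which loads Ras, with 0.21. Counts of Rasgrp1 were 13456, 11819, 13458 and 12857 in WT and 17699, 14301, 14126 and 13903 in K187R, with no overlap, as 1.47% of all genes tested showed in that direction. Map2k3, a kinase of the p38 branch, came next with -0.26 (adjusted p = 0.921 for all 3 from limma).

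The genes that restrain this signal, 16 tested, are phosphatases that switch off MAP kinases, Sprouty and SPRED proteins, and ubiquitin ligases that act on JUN with their partners. All 16 had a log2 fold change below 0, as 51.6% of all genes tested did, with a median of -0.09, and 0 passed the adjusted threshold. With quantile normalization 15 of the 16 were below 0, as with the sample set as a factor. Dusp5 had 3488, 2869, 4037 and 2791 in WT and 2412, 2465, 2805 and 2363 in K187R, a log2 fold change of -0.38, with 1 K187R sample just above the lowest WT sample. Dusp16 had -0.26 and Dusp4 -0.21 (adjusted p = 0.921 for all 3 from limma), and Dusp5 and Dusp16 were the 2 of the list with an unadjusted p-value under 0.05, where 1.64% of all genes tested had one below 0.

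Among 11 other immediate early genes, which T cell receptor signals switch on along with Fos, 2 had an unadjusted p-value under 0.05, both below 0, where 1.64% of all genes tested did, and 0 passed the adjusted threshold. The 3 with the smallest p-values were the nuclear receptors of the NR4A family. Nr4a2 had 3116, 2463, 3076 and 2768 normalized counts in WT and 1914, 2049, 1954 and 2289 in K187R, with a log2 fold change of -0.47 and no overlap, which 0.989% of all genes tested showed in that direction. Nr4a3 had -0.45 and Nr4a1 -0.41 (adjusted p = 0.921 for all 3 from limma). DESeq2 called Nr4a2 of these (adjusted p = 0.017), and in 3 of 8 fits with a sample left out. The median of the list was 0.02, and 6 of the 11 genes, such as Egr1 and Btg2, lay above 0.

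Genes that BATF, AP-1 and ROR-γt are known to control in Th17 cells made up a list of 14, of which 0 passed the adjusted threshold. Of these, 5 had an unadjusted p-value under 0.05 above 0 and 1 below 0, where 2.75% and 1.64% of all genes tested did. The list was chosen with earlier results of these data known. It includes Il17a, Il17f and Il23r, which the authors had reported as upregulated in the K187R cells. The counts are therefore a description and no independent evidence about the list. Il1r1, the receptor for IL-1, had 642, 872, 571 and 801 in WT and 1351, 1429, 1227 and 1238 in K187R, with no overlap and a log2 fold change of 0.88 (adjusted p = 0.344 from limma). DESeq2 called it with all 8 samples (adjusted p = 3.24e-05) and with each sample left out. Ctla4, an inhibitory receptor, had 18551, 13494, 16697 and 13975 in WT and 11057, 10949, 10094 and 11599 in K187R, again apart, with a log2 fold change of -0.51 (adjusted p = 0.921 from limma). DESeq2 called it with all 8 samples (adjusted p = 0.0179) and in 3 of 8 fits with a sample left out. Ccr6, the homing receptor of Th17 cells, had a log2 fold change of 1.02 (adjusted p = 0.921 from limma) and became a call with the sample set as a factor (adjusted p = 0.0157 from limma).

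**Figure D5:**
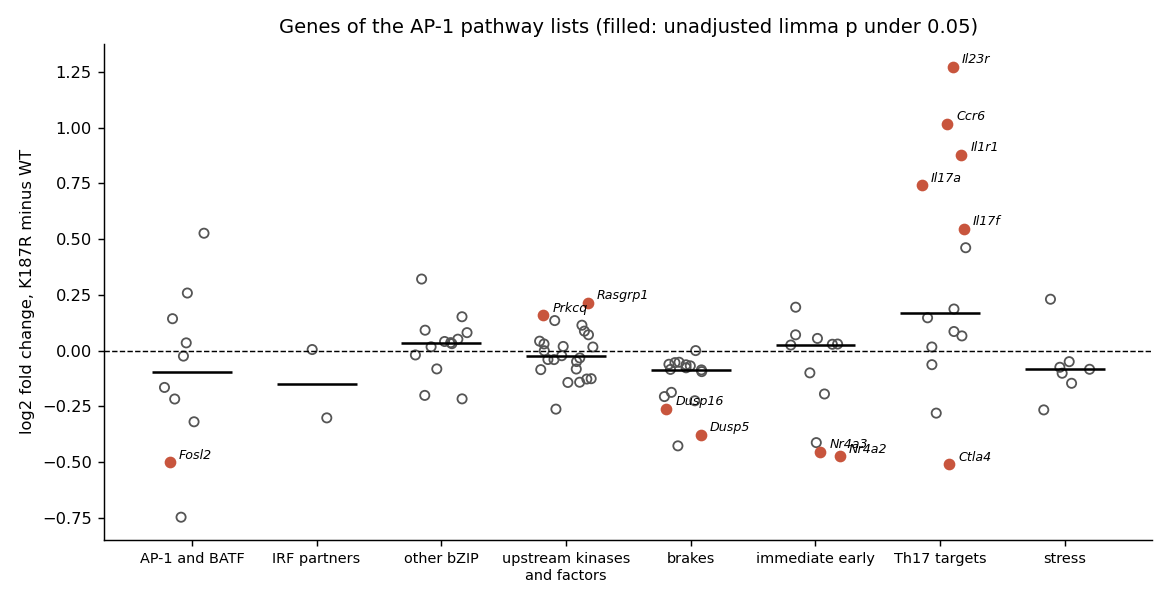
The log2 fold change (K187R minus WT, vertical axis) of every gene tested is drawn by list, with the median as a line and filled points where the unadjusted p-value from limma is under 0.05. The Th17 targets hold 6 filled points, 5 of them above 0, the 16 brakes all lie below 0 with 2 filled, and Fosl2 is the 1 filled point among the 10 AP-1 and BATF genes. The lists were chosen with earlier results of these data known.

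Promoters, 250 bases before to 50 bases after the start of a gene, were searched on both strands for the AP-1 site TGACTCA, the cyclic AMP response element TGACGTCA, the core of the ROR element AGGTCA and the CArG box. None of these motifs contains another. RefSeq gave a promoter for 9 of the 10 genes, all but Fosl1, and 0 of the 9 held any of the 4. Over all 32851 promoters the shares were 5.20%, 1.79%, 16.3% and 1.63%. These shares are per promoter, whereas a gene of a list counted once if any of its promoters matched, so they are not in the same unit. The ROR core was present in 6 of the 12 target genes with a promoter, Ccl20, Ccr6, Il17a, Il17f, Il2 and Il23r, and the AP-1 site in 0 of the 12. The stretch before Il17a is shown because it is the promoter the study turns on, with the ROR core in capitals as it reads on the printed plus strand, beginning 120 bases before the start (RefSeq, GRCm38.p6, chr1:20730655-20730904).
Il17a: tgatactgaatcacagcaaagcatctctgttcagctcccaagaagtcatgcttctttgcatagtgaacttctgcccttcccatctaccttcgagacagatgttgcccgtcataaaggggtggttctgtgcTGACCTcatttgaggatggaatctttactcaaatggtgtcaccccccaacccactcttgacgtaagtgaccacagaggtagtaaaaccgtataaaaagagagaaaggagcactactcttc
A match is a description of letters and no evidence of binding.

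The 3 genes whose centred log2 values over the 8 samples lay closest to those of Batf were Prf1, Zbtb8a and Dcxr, with root mean square differences of 0.08 for each. Prf1, the gene of perforin, had 592, 683, 671 and 554 in WT and 691, 757, 846 and 605 in K187R, the highest sample being K187R replicate 3 as for Batf. Closest to Fos were Slc25a27 with a difference of 0.05, and Spry1 and AW046200 with 0.08 each. Spry1, which restrains Ras signals and is 1 of the 16 brakes, had 6597, 5795, 6952 and 8869 in WT and 5656, 5217, 5601 and 7638 in K187R, with replicate 4 the highest of each group as for Fos.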

How the data were processed

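The authors trimmed reads with Cutadapt, aligned them to GRCm38 with HISAT2, counted them per gene with featureCounts and divided each sample's counts by a DESeq2 size factor. The deposited values are thus a normalized signal, called normalized counts here. Every value (100%) corresponded to a whole number of reads within 0.01 of a read, so reads were recovered; DESeq2 called 27 genes on them. The main test was limma (lmFit, eBayes with trend) on log2(normalized count + 1) over 16982 genes with a mean of at least 10, with Benjamini-Hochberg adjustment. The fold change understates low genes. A floor of 3 reads is 2.54 to 3.56 normalized counts. The members, lists and tests were chosen with earlier results of these data known. The genes named are the members, the 3 smallest limma p-values of each list, Irf4, Irf8 and the 3 nearest patterns to Batf and Fos, and 1 other gene of this rule is not reported here. Alternatives were other pseudocounts (0.5 and 5), filters (none, a mean of at least 50), scalings, eBayes without trend, the replicate number or sample set as a factor, each sample left out, edgeR and DESeq2. DESeq2 with samples left out, and the sample set in edgeR and DESeq2, were added after the data were seen. The library kit is given in 2 ways, and the strand setting is not given in the sources used here. Exon lengths are from GENCODE M21, in place of the authors' M15. Methods were tested on simulated data. The tools were matplotlib 3.10.9, pandas 2.3.3, scipy 1.17.1, numpy 2.4.6 and Python 3.11.15 for tables and plots, and DESeq2 1.42.0, edgeR 4.0.16 and limma 3.58.1 in R 4.3.3 for fits.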

Additional observations from a re-analysis of the deposited data

Results flagged for a closer look

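Of 74 groups of 4 samples examined, 3 held a sample far from the other 3, where chance gives about 1 in 20 (3.7), and 0 of them belonged to the 10 AP-1 and BATF genes. Maff was lowest in K187R replicate 1, with 862 normalized counts against 961 to 978 in the other K187R samples. Nfe2l2 was highest in WT replicate 2, with 6651 against 5221 to 5464. Rasgrp1 was highest in K187R replicate 1, with 17699 against 13903 to 14301.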

How the results depend on the processing

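In limma 0 genes passed under the other pseudocounts, filters and scalings and with eBayes without trend, and 0 passed in edgeR with the group alone. The count of genes past the threshold was 1 with the sample set in limma, 1 with the sample set in edgeR, 27 in DESeq2 and 143 in DESeq2 with the sample set. With each sample left out it was 0 to 4 in limma (4 without WT replicate 4) and 12 to 336 in DESeq2 (12 without K187R replicate 2, 336 without WT replicate 4). Of the 10 AP-1 and BATF genes, 0 passed in any limma or edgeR fit, 1 in DESeq2 (Fosl2), 2 in DESeq2 with the sample set (Fosl2 and Fosb), and 0 to 2 in DESeq2 with a sample left out. The cause of the difference between the tools was not tested.

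Samples with the same replicate number had correlated deviations for numbers 1, 2 and 4 (r = 0.59, 0.66 and 0.63) and not for number 3 (r = -0.09), and samples numbered 1, 2 and 4 correlated best with their own number while those numbered 3 did not. The numbers were therefore not taken as pairs of samples. With the replicate block the count of genes was 0 in limma and edgeR and 175 in DESeq2, and that of the 10 genes 2 in DESeq2 (Fosl2 and Fosb). Exact sign flips with the replicate block gave p = 0.125 for Fosl2, the smallest that 4 numbers allow, which the full separation of its groups makes certain.

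Over 37 genes and 31 alternatives, 1116 of 1147 log2 fold changes kept their sign. Irf4 was -0.017 with median centring and -0.0017 in DESeq2. With a sample left out, in limma and DESeq2 together, values ranged from -0.062 to 0.291 for Fosl1, from -0.110 to 0.062 for Junb, from -0.127 to 0.180 for Jund, from -0.068 to 0.052 for Irf4, from -0.266 to 0.027 for Slc25a27 and from -0.258 to 0.097 for AW046200. With the length of the longest transcript the JUN share was 77.8% in WT and 78.1% in K187R, the FOS share 10.9% and 8.61%, the BATF share 10.03% and 12.3%, and the ATF3 share 1.26% and 1.05%. Depth limits Batf3 most, whose lowest sample had 33 reads.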

Other observations

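Heat shock and oxidative stress genes were taken as a list of 7, and 0 of them had an unadjusted p-value under 0.05 in limma. The 3 with the smallest p-values were Dnajb1 with a log2 fold change of -0.10, Hspa1b with -0.27 and Hspa8 with -0.08. Hspa1b lay between 87.1 and 219 normalized counts in WT and between 90.4 and 141 in K187R. Hmox1, the heme oxygenase, was highest in the samples numbered 4, at 16481 in WT and 15515 in K187R, as was Fos.

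Markers of other cells varied between samples of both groups. All tested B cell (4), monocyte and macrophage (5), dendritic (3) and natural killer (2) markers had a log2 fold change above 0. The 2 CD8 markers were below 0. Over all genes tested, 8224 of 16982 were above 0. B cell markers (4 genes) summed to 262 in WT replicate 4 and 310 in K187R replicate 4, and to between 822 and 1253 in the other 6 samples. CD8 markers (2 genes) summed to 1025 and 1141 in those samples and to between 387 and 556 in the others. Natural killer cell markers (3 genes) summed to between 370 and 435 in the 3 samples of set 2 and to at most 64.0 elsewhere. Most of this sum was Eomes, which T cells also express, at 360, 341 and 404 in set 2, while Klrb1c was at most 24.9 and Ncr1 at most 9.48. Red cell genes (2 in the table) summed to at most 53.3. In limma 0 genes of these lists had an unadjusted p-value under 0.05. Their part in the AP-1 values was not tested.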
